A study of Mus musculus
Mus spretus with 18 samples.

Results

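The genes described here are 8 genes of the lung epithelium: the surfactant protein genes Sftpa1, Sftpd, Sftpb and Sftpc, the alveolar type 2 cell gene Lamp3, the alveolar genes Ager and Cldn18, and the airway secretory gene Scgb1a1. They were chosen by symbol, and all 8 were found among the 38924 genes of the expression table. In the lung they held 52 of 35642 skipped exon (SE) events, of which 51 reached 20 junction reads or more in both lung libraries. For 44 events, each allele had at least 20 reads in each library.

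All animals and cells were F1 hybrids of a C57BL/6J mother and a SPRET/EiJ father, so each gene was present as 1 allele of each strain. RNA-seq was made with 2 libraries each from lung, spleen, kidney, liver, heart and cerebral cortex of mice aged 8 weeks and from embryonic stem cells (ESC, 2 clones). Fibroblasts of the same cross were treated for 4 h with DMSO or with 0.1 µM Pladienolide B, an inhibitor of the splicing factor SF3B1, with 2 libraries each. The liver libraries came from an earlier study, and their labels give the maternal strain as C57BL/7J and C57BL/8J. Whole organs were used, so the tissue libraries mix many cell types.

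Pulmonary surfactant is a film of lipid and protein that lowers surface tension in the alveoli and keeps them from collapsing. Alveolar type 2 cells make it, store it in lamellar bodies and secrete it, and the flat alveolar type 1 cells form the surface for gas exchange. Sftpb and Sftpc encode small hydrophobic proteins that spread the lipid film, and Sftpa1 and Sftpd encode collectins that bind microbes. Lamp3 encodes a membrane protein of lamellar bodies, Ager a receptor that is abundant on alveolar type 1 cells, Cldn18 a claudin of epithelial tight junctions, and Scgb1a1 the main secreted protein of club cells in the bronchioles.

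On mm10, Sftpa1 (ENSMUSG00000021789) lies at chr14:41131788-41136373 and Sftpd (ENSMUSG00000021795) close to it at chr14:41172212-41185198. Sftpc (ENSMUSG00000022097) lies on the same chromosome at chr14:70520941-70524081. Sftpb (ENSMUSG00000056370) is at chr6:72304610-72314373, Lamp3 (ENSMUSG00000041247) at chr16:19653381-19706365 and Ager (ENSMUSG00000015452) at chr17:34597460-34600937. Cldn18 (ENSMUSG00000032473) is at chr9:99690796-99717267 and Scgb1a1 (ENSMUSG00000024653) at chr19:9083642-9087956. All 8 are protein coding in RefSeq, and no other RefSeq gene overlapped any of the 8 spans.

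Summed over all SE events, the tissue libraries had between 46558287 and 129496306 junction reads. A read was counted in each event that it entered, here and in the shares below. In the lung these were 76239886 and 67823397 reads, and events of the 8 genes took 16.0% and 15.2% of them. The same events had 348 and 231 reads in the spleen and between 4 and 61 in each of the other 10 tissue libraries. The 2 allelic columns were checked with imprinted genes in lung: the C57BL/6J column held 99.8% of allelic reads of the maternally expressed Meg3 and 0.0578% of those of the paternally expressed Snrpn.

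The lung label was checked against marker genes. The alveolar type 1 list summed to 8426 and 8319 TPM in lung (a length-corrected relative abundance with the same total in every library). It summed to between 149.8 and 1273 in the other tissue libraries. The list holds Ager (2939 and 2720 TPM in lung) and Cldn18 (539.1 and 539.3). The check by this list therefore rests in part on genes described here. The ciliated airway list, which holds none of them, summed to 1266 and 1197 TPM in lung against 2.80 to 111.8 in the others. Not every list of lung genes was highest in lung. Surfactant processing genes summed to 3920 and 4586 TPM in lung and to 10266 and 9524 in kidney. Alveolar macrophage genes summed to 528.5 and 644.4 TPM in lung and to 1618 and 1696 in heart. The heart sum was almost wholly that of Fabp4, with a mean of 1651 TPM in heart. Cardiomyocyte genes summed to 1703 and 1316 TPM in lung, to between 60317 and 60468 in heart, and to at most 42.3 in the remaining tissue libraries. The lung libraries therefore held RNA of heart muscle genes, and its part in the results below was not tested.

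All 8 genes were highest in lung, and for each of them both lung libraries lay above all 12 other tissue libraries. Across the 21925 genes tested, 9.46% were separated in this way. Scgb1a1 ranked first and Sftpc second of all genes in lung. Together the 8 genes made up 21.1% and 19.6% of all TPM in the lung libraries, 0.0149% and 0.0103% in the spleen libraries, and at most 0.0007% in any other tissue library. In bulk tissue, fewer cells of a type and less RNA per cell cannot be told apart.

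Among the hydrophobic surfactant proteins, Sftpc had 31633 and 33030 TPM in lung. In spleen it had 20.4 and 13.1 TPM and in cortex 1.98 and 1.79, and it had 0.0303 and 1.06 in the 2 kidney libraries. The lung mean was 1932-fold the spleen mean, and cortex was called lower than spleen and higher than kidney. Below that, kidney, liver, heart and ESC followed in this order, each overlapping with the next. Sftpb had 4339 and 4456 TPM in lung, 2.76 and 1.94 in spleen and under 0.1 in every other tissue library. Its lung mean was 1872-fold that of spleen, and among liver, ESC, kidney, heart and cortex, in falling order, no neighbours were called different.

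The collectin gene Sftpa1 had 2445 and 2983 TPM in lung. It was the only one of the 8 genes with liver as the next tissue, at 3.20 and 2.32 TPM, followed by spleen at 1.82 and 1.28. Liver and spleen did not overlap, but their difference of 0.80 on the log2 scale was under the limit of 1 (limma, adjusted p = 0.0313). Spleen, heart and kidney differed from each other in turn, and kidney, cortex and ESC did not. Sftpd had 969 and 1239 TPM in lung, 5.06 and 1.59 TPM in the 2 ESC clones, and 0.822 and 0.524 in spleen. The 2 ESC clones thus differed by a larger fold than the 2 lung libraries did, and both lay above all other libraries outside the lung. ESC, spleen and liver differed in turn, and liver, heart, kidney and cortex did not.

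Lamp3 had 200.3 and 241.8 TPM in lung and 2.19 and 2.09 in spleen, a fold of 103.4 between the means that was the smallest of the 8. Every other tissue library was at 0.0963 TPM or lower, and ESC, liver, kidney, cortex and heart followed spleen with no neighbours called different. Ager had 2939 and 2720 TPM in lung, 14.5 and 9.25 in spleen, and 2.04 and 1.90 in kidney. Spleen, kidney and cortex differed in turn, and cortex, ESC, heart and liver did not. It was the gene of the 8 with a value above 0.1 TPM in every tissue library. In fibroblasts Ager had 0.902 and 0.614 TPM with DMSO and 0.0554 and 0.166 TPM with Pladienolide B, while the other 7 genes had at most 0.0828 TPM in any fibroblast library.

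Cldn18 had 539.1 and 539.3 TPM in lung, 1.13 and 0.280 TPM in the 2 ESC clones and 0.325 and 0.239 TPM in spleen. ESC and spleen overlapped and did not differ in the test (limma, adjusted p = 0.110). Spleen was called higher than kidney, and kidney, cortex, liver and heart did not differ in turn. Scgb1a1 had 167577 and 150414 TPM in lung, 15.9% of all TPM. In spleen it had 106.4 and 74.4 TPM and in every other tissue library at most 0.645. ESC was called lower than spleen and higher than cortex, and cortex, kidney, liver and heart did not differ in turn.

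**Figure D1:**
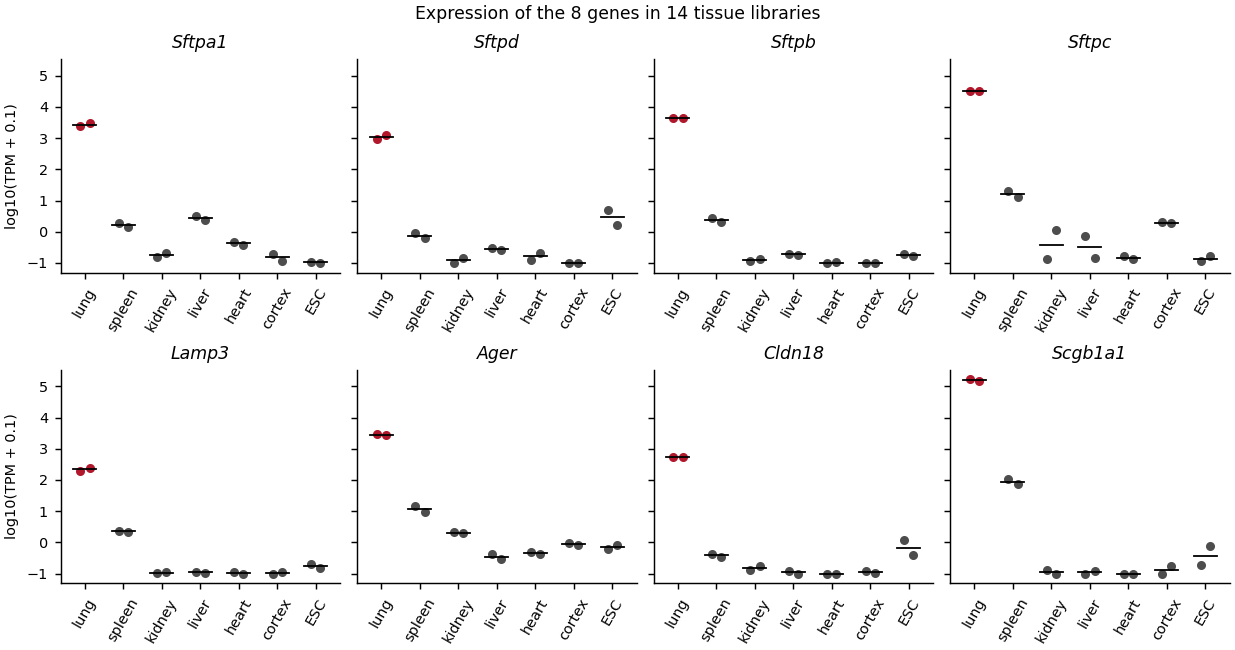
Expression of the 8 genes on the log10(TPM + 0.1) scale (vertical axis) in the 2 libraries of each of 7 tissues (horizontal axis); points are libraries, bars are means of the 2 and lung is in red. In each panel both lung points lie above the other 12, and spleen is the next tissue for Sftpb, Sftpc, Lamp3, Ager and Scgb1a1.

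The comparison of lung with the mean of the other 6 tissues asked which genes were higher in lung. With limma on log2(TPM + 0.1), 25.8% of 21925 genes were called higher and 14.9% lower (adjusted p below 0.05 and a log2 difference of at least 1). All 8 genes were called higher. The log2 difference was 18.53 (SE 0.41) for Scgb1a1, 15.58 (SE 0.72) for Sftpc, 14.30 (SE 0.15) for Sftpb and 12.65 (SE 0.23) for Sftpa1. It was 11.71 (SE 0.37) for Sftpd, 11.47 (SE 0.34) for Cldn18, 11.25 (SE 0.21) for Ager and 10.16 (SE 0.14) for Lamp3, and the largest adjusted p of the 8 was 6.7e-08 for Sftpc. These differences are set in part by the pseudocount, since many values outside the lung are below it. The folds between means of TPM given above do not use it.

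All 8 genes were also called higher in lung than in each of the 6 other tissues taken singly. In those comparisons 22% of genes were called higher in lung than in spleen, 25.1% than in kidney, 59% than in liver, 39% than in heart, 24.4% than in cortex and 29.1% than in ESC. The 6 comparisons share the lung libraries.

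With the 8 genes taken out, the remaining values rescaled to a common total and each library centred on its median, the median difference over all genes moved from 0.17 to -0.11. The calls then split into 4722 higher and 4833 lower genes, against 5667 and 3271. All 8 genes stayed called higher.

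In the spleen, 6 of the 8 genes stood at nearly the same small percentage of their lung level. In spleen library 1, Sftpa1, Sftpd, Sftpb, Sftpc, Cldn18 and Scgb1a1 had between 0.0603% and 0.0744% of the mean lung TPM, and in spleen library 2 between 0.0405% and 0.0475%. Their lung levels ranged from 539.2 TPM for Cldn18 to 158996 TPM for Scgb1a1. The 2 spleen ranges did not overlap, and library 1 was the higher one for every gene.

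Lamp3 and Ager stood apart from that ratio. Lamp3 in spleen had 0.990% and 0.945% of its lung level, with little change between the spleen libraries, and Ager had 0.514% and 0.327%. Of the other alveolar and airway genes in the lists, 3 had at least 20 TPM in both lung libraries and under 1 TPM in all tissues but spleen. These were Bpifa1, Cxcl15 and Scgb3a2, which had 0.0654% to 0.0678% of the lung level in spleen library 1 and 0.0490% to 0.0582% in library 2. This comparison was added after the values were seen, and whether the spleen reads of these genes came from spleen cells was not tested.

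**Figure D2:**
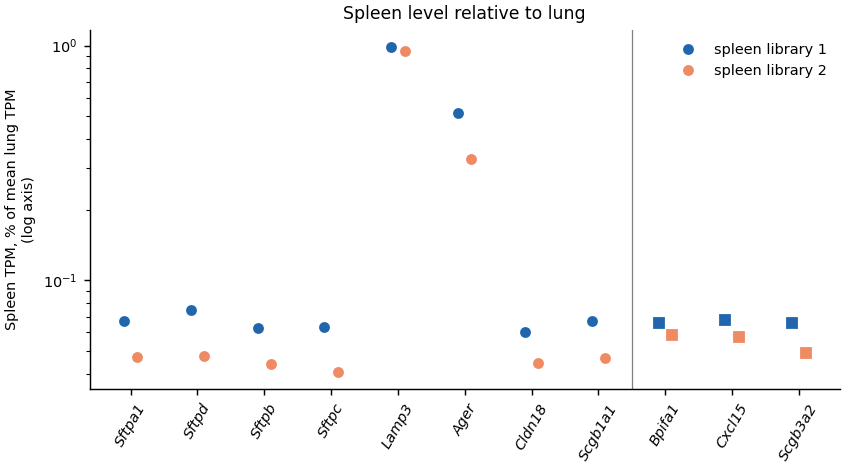
Spleen TPM as a percentage of the mean lung TPM (vertical axis, log scale) for the 8 genes (circles) and for 3 further airway and alveolar genes (squares, right of the line) in spleen library 1 (blue) and library 2 (orange). 6 of the 8 genes and the 3 further genes lie between 0.0405% and 0.0744%, with Lamp3 and Ager above them.

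The genes around the 8 were described by lists of cell type markers and of surfactant metabolism. Beside the 5 surfactant and lamellar body genes, the alveolar type 2 list held 11 genes, and all 11 were called higher in lung, with a median log2 difference of 5.31 against 0.17 over all genes tested. Cxcl15, a chemokine of lung epithelium, was higher by 13.50 (SE 0.29), the phosphate transporter gene Slc34a2 by 9.87 (SE 0.36) and the lysozyme gene Lyz2 by 7.15 (SE 0.24). Some genes of the list were not highest in lung, of which 2 are named after their values were seen. Abca3, the lipid transporter of lamellar bodies, had 147.7 and 162.2 TPM in lung and a mean of 174.0 TPM in kidney, and Napsa, the aspartic protease that processes Sftpb, had 232.4 and 260.4 TPM in lung and 7491 TPM in kidney.

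Of the alveolar type 1 list, the 10 genes other than Ager and Cldn18 were all called higher, with a median of 5.51. The water channel gene Aqp5 was higher by 9.63 (SE 0.51), Gprc5a by 8.37 (SE 0.20) and Rtkn2 by 7.16 (SE 0.15). The airway lists were called higher in full: 8 of 8 secretory genes beside Scgb1a1, with a median of 9.53, and 9 of 9 genes of ciliated cells, with a median of 6.14. Scgb3a2, a second secretoglobin, was higher by 13.90 (SE 0.13), and the antimicrobial airway gene Bpifa1 by 12.31 (SE 0.13). In the ciliated list Ccdc153 was higher by 9.97 (SE 0.37) and Foxj1, the regulator of motile cilia, by 7.16 (SE 0.35).

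Of 11 transcription factor genes of lung epithelium, 10 were called higher and none lower. Nkx2-1, which drives surfactant protein genes, had 195.8 and 185.5 TPM in lung and was higher by 9.93 (SE 0.13), Foxa2 by 6.52 (SE 0.19) and Foxa1 by 5.75 (SE 0.13). Sox9 had 0.912 and 0.692 TPM in lung and did not pass. With the values rescaled and centred as above, 9 of the 11 were called higher and 1 lower, while the counts of the alveolar, airway and surfactant metabolism lists were the same.

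Of 16 genes of surfactant processing, lipid supply and clearance, 11 were called higher and 5 were not called, with a median of 1.87. The list shares some genes with the alveolar type 2 list. Among the 5 that were not called, Pcyt1a, the rate-limiting enzyme of phosphatidylcholine synthesis, differed by 0.50 (SE 0.14), Chpt1 by -0.07 (SE 0.07), Fasn by 0.14 (SE 0.26), Acly by 0.00 (SE 0.11) and Srebf1 by 0.62 (SE 0.11). Other genes of lipid synthesis in the list were called, Lpcat1 (4.17, SE 0.14) and Scd1 (1.75, SE 0.38). In the same list Slc34a2, the phospholipase gene Pla2g1b (6.67, SE 0.25), Adgrf5 (5.14, SE 0.30) and Napsa (4.73, SE 0.35) had the largest differences.

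Among other cell types that a whole lung can hold, all genes of the lists for alveolar macrophages (8), endothelial cells (5), mesenchymal cells (6) and cardiomyocytes (6) were called higher than the mean of the other tissues. Their median differences were 5.43, 4.13, 3.73 and 5.52. The largest differences were those of Chil3 (8.83, SE 0.35), Cldn5 (5.68, SE 0.15), Tcf21 (5.57, SE 0.18) and Actc1 (8.17, SE 0.41), in the same order of lists. The contrast is with a mean over tissues on a log scale, so a gene at its highest in spleen or heart can also pass it. Of the lists for other organs, none of 4 kidney tubule genes was called higher and 3 were called lower, and the same counts were found for 4 hepatocyte genes. Of the 4 neuron genes 1 was called higher and 3 lower, and of the 4 pluripotency genes 1 was called higher and 1 lower.

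The genes most alike in their profile were found with Pearson's r of log2(TPM + 0.1) over the 14 tissue libraries against the mean standardised profile of the 8 genes. The 10 most alike genes outside the 8 were Scgb3a2 (r = 0.997), Cxcl15 (0.992), Itln1 (0.991), Bpifa1 (0.991), Noxa1 (0.985), Ldlrad1 (0.984), Col13a1 (0.983), Olfr1342 (0.979), Ear-ps2 (0.978) and Ear1 (0.978). Of the 21925 genes, 44 had an r of at least 0.95. The 8 genes themselves ranged from 0.942 for Sftpa1 to 0.999 for Sftpb. The libraries of 1 tissue share their profile, so these values describe a contrast of lung with the rest and spleen as the second tissue. Olfr1342, Ear1 and Ear-ps2 belong to large gene families, in which reads can be shared between copies.

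The members differed in the gene most like each of them. Sftpb was most like Scgb3a2 (r = 0.998), Sftpd was most like Cldn18 (0.984), and Lamp3 and Scgb1a1 were most like each other (0.995). Ager was most like Adam28 (0.994), Cldn18 most like Ldlrad1 (0.988), Sftpa1 most like Gm830 (0.988) and Sftpc most like Olfr550 (0.982). Cxcl15 was among the 3 most alike genes of Sftpa1, Sftpb and Sftpc, and Itln1 among those of Sftpb, Lamp3 and Scgb1a1.

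Exon inclusion was measured as percent spliced in (PSI), the share of length-corrected junction reads that include the exon. In lung, 46 of the 51 events of the 8 genes, or 90.2%, had a mean PSI above 0.9, against 81.0% of 32547 autosomal events with the same read minimum. The median PSI was 0.998, against 0.988 over those autosomal events. Between the 2 lung libraries, the median absolute difference of the 51 events was 0.00335. The events cover 30 exons, several of which enter more than 1 event, so events of 1 gene share reads. The event under the read minimum, at Lamp3, had 3 and 4 inclusion reads, and the least covered event kept, at Sftpc, had 93 and 149. Their median depth in lung library 1 was 83223 reads, against 699 over all events.

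The best covered event of each gene was included almost completely. The 188 bp exon of Scgb1a1 (chr19:9085188-9085375) had 39 skipping reads beside 4313559 inclusion reads in library 1 and 42 beside 3330505 in library 2. The 111 bp exon of Sftpc (chr14:70521805-70521915) had 88 and 149 skipping reads beside 1022788 and 893417 inclusion reads. The 165 bp exon of Sftpb (chr6:72306811-72306975) had 3 and 6 skipping reads beside 199741 and 179285.

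The 127 bp exon of Cldn18 (chr9:99698071-99698197) had 0 of 18030 skipping reads in library 1, which allows a share of up to 0.0166% by counting error alone, and 3 of 17037 in library 2. The 171 bp exon of Lamp3 (chr16:19673391-19673561) had a PSI of 0.996 and 1.00, and the 107 bp exon of Ager (chr17:34598141-34598247) one of 0.992 and 0.994. The 120 bp exon of Sftpa1 (chr14:41132822-41132941) had 0.990 and 0.998, and the 117 bp exon of Sftpd (chr14:41176936-41177052) 0.984 and 1.00.

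Intermediate inclusion, with a mean PSI between 0.1 and 0.9, was found at 5 events in 3 genes. The lowest was at Ager, where a 27 bp exon (chr17:34600351-34600377) had a PSI of 0.749 and 0.733, from 65033 and 49932 inclusion reads beside 16158 and 13535 skipping reads. A longer form of 153 bp, which runs through the whole following intron and ends within the next exon at chr17:34600503, had 0.850 and 0.899 in the event that joins it to a later exon. Inclusion of the short form in the event with the same skipping junction was 0.888 and 0.926, just outside the range. Both forms start at chr17:34600351, so reads of the junction into that start count for both. Inclusion reads were 23698 and 18421 for the long form and 22470 and 17330 for the short one. The PSI of the long form therefore does not show how often that form itself was used. The length of 27 bp and that of 153 bp are multiples of 3.

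At Sftpa1, a 33 bp exon near the start of the gene (chr14:41132216-41132248) had a PSI of 0.895 and 0.899 when measured against skipping to the next exon. Against the junction that skips to the exon after that, it had 0.776 and 0.836, from 387 and 389 reads. At Sftpb, a 115 bp form of an exon (chr6:72309826-72309940) had a PSI of 0.885 and 0.910 against the skip to chr6:72312353, from 12711 and 10693 reads. Against the skip to chr6:72310635, the same form had 0.9997 and 0.9994, from 83223 and 70845 reads. In the event of the longer skip, this form had the minority of the reads. The 185 bp form starting upstream of it had 32308 and 28785 inclusion reads there, against 11936 and 10192.

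Between tissues, inclusion could be compared at 4 pairs of event and tissue. The 27 bp exon of Ager had a PSI of 0.744 and 0.697 in spleen, from 231 and 123 reads, and of 0.734 and 0.788 in kidney, from 33 and 30 reads. Both tissues overlapped with the lung libraries. The difference lung minus spleen was 0.020 (adjusted p = 0.993) and lung minus kidney was -0.020 (adjusted p = 0.996, both from a quasi-binomial test moderated across events with limma). At spleen, the 33 bp exon of Sftpa1 had 0.750 and 1.00, from 37 and 29 reads, and the 81 bp exon of Sftpb had 1.00 and 0.951, from 80 and 79 reads. None of the 4 was called, where 2.52% of events were called against spleen and 2.95% against kidney. With these reads in spleen and kidney, not only a difference of a few percent but also a large one could be missed. In simulated data, 43% of differences of 0.2 in PSI between lung and spleen were recovered over all events tested.

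The allelic comparison in lung asked whether the C57BL/6J and the SPRET/EiJ copy of an exon were included to a different extent in the same libraries. Of 22047 events tested, 2.68% were called (adjusted p below 0.05 and a difference in PSI of at least 0.1). None of the 44 events of the 8 genes was called. With the library as a block, 898 events in place of 590 were called, and again none of the 44. At an unadjusted p below 0.05, 3028 events passed, and by adjusted p alone 919 events or 4.17%. By adjusted p alone, 3 events of the 8 genes passed. With the library as a block, 1830 events passed by adjusted p alone, and 6 events of the 8 genes. The median absolute difference over the 44 events was 0.00137, and 2 of them differed by 0.1 or more.

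The 3 events that passed by adjusted p alone without the block are named after their values were seen. In all of them the PSI was lower on the SPRET/EiJ allele. At Sftpd, an 84 bp exon (chr14:41174477-41174560) had a PSI of 0.981 in both libraries on the C57BL/6J allele. On the SPRET/EiJ allele it was 0.909 and 0.915. The alleles did not overlap, and the difference of 0.069 (adjusted p = 3.5e-06) was under the limit of 0.1. Of the skipping reads 146 and 156 came from C57BL/6J and 497 and 470 from SPRET/EiJ, although the C57BL/6J copy gave more inclusion reads.

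At Sftpc, a 156 bp exon (chr14:70521317-70521472) had a PSI of 0.974 and 0.972 on the C57BL/6J allele and of 0.961 and 0.954 on the SPRET/EiJ allele. The difference of 0.016 was small (quasi-binomial test, adjusted p = 0.0111) but rested on 6460 and 6216 skipping reads of C57BL/6J and 5636 and 5718 of SPRET/EiJ. C57BL/6J thus gave 53.4% and 52.1% of the skipping reads, but 63.9% and 64.6% of all allelic reads of this event. At the best covered event of Sftpc its share was 53.1% and 53.3%. Whether uneven assignment of reads to alleles bears on the difference was not tested. At Sftpb, an 81 bp exon (chr6:72312353-72312433) had 0.995 and 0.972 on the C57BL/6J allele and 0.913 and 0.906 on the SPRET/EiJ allele, a difference of 0.074 (adjusted p = 0.0440). Its skipping reads were 52 and 224 of C57BL/6J and 1489 and 1146 of SPRET/EiJ. In a second event of the 81 bp exon, with the skip from chr6:72307243 to chr6:72312870, the alleles overlapped and the difference did not pass. The C57BL/6J allele had 0.960 and 1.00 there and the SPRET/EiJ allele 0.9997 and 0.9999. In the 3 events that passed, the alleles did not overlap over the 2 libraries.

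All 3 also passed with the library as a block. The 3 events that passed only with it are likewise named after their values were seen, and their differences were small. They were the 33 bp exon of Sftpa1, the 161 bp exon of Sftpb in an event with a difference of 0.0045, and the 78 bp exon of Sftpb (chr6:72312870-72312947) with a difference of -0.0016. Both of these Sftpb events had skipping reads in 1 library only, with 293 and 0 reads at the first and 0 and 43 at the second.

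The intermediate exons showed small allelic differences. At the 27 bp exon of Ager the C57BL/6J allele had 0.727 and 0.718 and the SPRET/EiJ allele 0.751 and 0.724, which overlap (difference -0.015, adjusted p = 0.580). The 33 bp exon of Sftpa1 had 0.882 and 0.883 on the C57BL/6J allele and 0.858 and 0.864 on the SPRET/EiJ allele. The difference of 0.021 did not pass (adjusted p = 0.0787), but did with the library as a block (adjusted p = 7.5e-05). For the 115 bp form at Sftpb, against the skip to chr6:72312353, the C57BL/6J allele had 0.821 and 0.888 and the SPRET/EiJ allele 1.00 and 0.941. The difference of -0.116 did not pass (quasi-binomial test, adjusted p = 0.439).

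**Figure D3:**
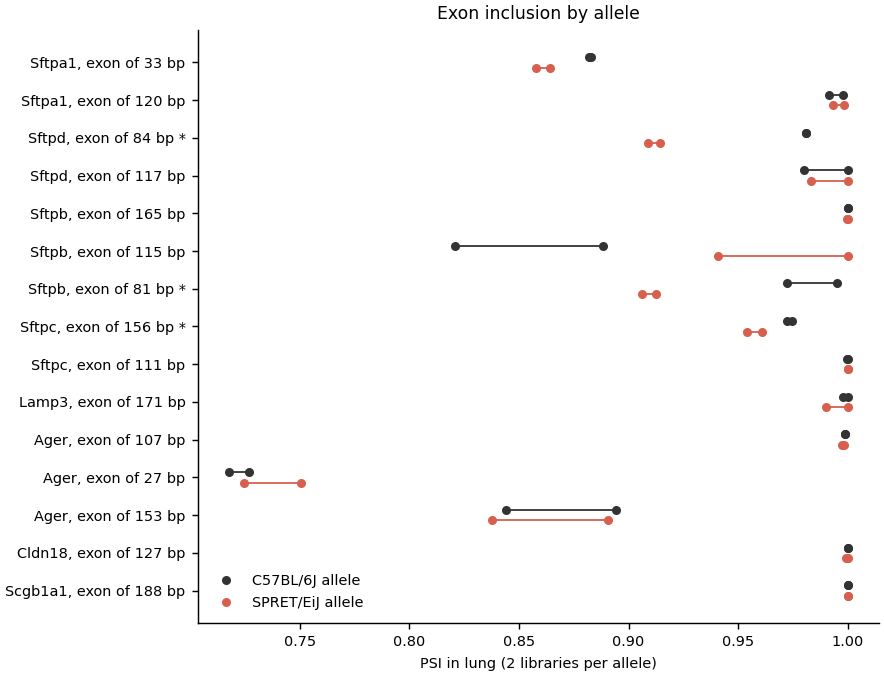
PSI in lung (horizontal axis) of the C57BL/6J (black) and SPRET/EiJ (red) allele at the best covered and the intermediate events of the 8 genes and at the 3 events with an adjusted p below 0.05 (asterisk). Each point is 1 of 2 libraries and lines join the libraries of an allele, and the alleles are apart by 0.069 at the 84 bp exon of Sftpd.

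Some skipping junctions of these genes were seen in 1 of the 2 lung libraries and not in the other. Of 40 distinct skipping junctions of the 8 genes, 23 had at least 40 reads in a library, and 8 of the 23 (34.8%) had at most 2 reads in the other library. Among the other genes this was so for 206 of 4813 junctions, or 4.28%. The limits of 40 and 2 reads were set after the values were seen. The 8 genes are read much more deeply than most, so that rare junctions reach 40 reads, and how far depth bears on the 2 percentages was not tested.

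The 8 junctions belonged to Sftpb (4), Sftpa1 (2), Sftpc (1) and Sftpd (1). A junction of Sftpa1 from chr14:41132941 to chr14:41134070 had 997 reads in library 1 and 0 in library 2. One of Sftpc from chr14:70521115 to chr14:70522615 had 0 reads in library 1 and 469 in library 2. A junction of Sftpd had 294 and 0 reads. Of the 4 at Sftpb, 3 were read in library 1 (66 and 0, 293 and 0, 318 and 1 reads) and 1 in library 2 (0 and 43 reads).

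At 3 of the 8 junctions, the allelic reads came almost entirely from 1 allele. The junction of Sftpb from chr6:72307243 to chr6:72312870 had 269 reads of C57BL/6J and 3 of SPRET/EiJ in library 1. The one from chr6:72309940 to chr6:72312353 had 18 of C57BL/6J and 255 of SPRET/EiJ in the same library. All 43 reads of the junction from chr6:72312433 to chr6:72313974 in library 2 were of C57BL/6J. By contrast, the reads at Sftpa1 were divided into 125 and 108 and those at Sftpc into 174 and 240. A further junction of Sftpb, from chr6:72307243 to chr6:72312353, was read in both libraries (775 and 501 reads), but with 217 reads of C57BL/6J and 0 of SPRET/EiJ in library 1 and 105 and 128 in library 2.

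These junctions set the PSI of the rare events. For the 161 bp exon of Sftpb (chr6:72310635-72310795), measured against the first of the 3 junctions, the C57BL/6J allele had a PSI of 0.103 in library 1 and 1.00 in library 2, while SPRET/EiJ had 0.996 and 0.998. The mean difference of -0.445 was the largest of the 44 and did not pass (adjusted p = 0.295), with the 2 libraries of 1 allele far apart. Most skipping junctions that were read in both libraries had similar counts, such as 16158 and 13535 reads at Ager, 12103 and 11943 at Sftpc and 3887 and 3915 at Sftpa1. The most unequal of them, at Sftpa1, had 839 and 204 reads.

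**Figure D4:**
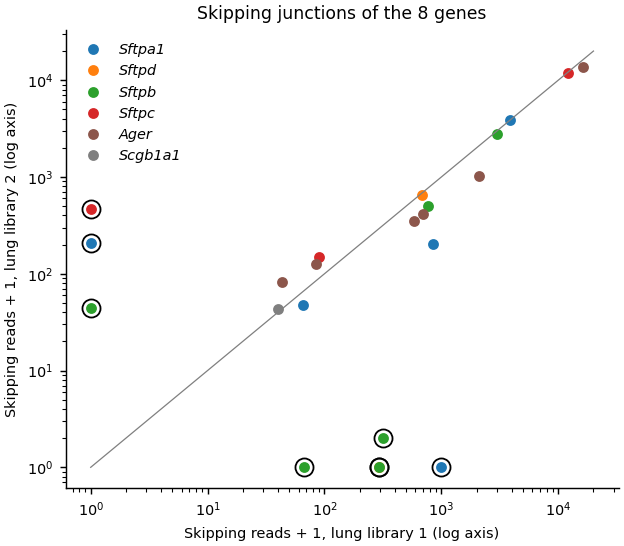
Skipping reads plus 1 in lung library 1 (horizontal axis, log scale) against lung library 2 (vertical axis, log scale) for the 23 skipping junctions of the 8 genes with at least 40 reads in a library; the line marks equal reads. Open rings mark the 8 junctions with at most 2 reads in the other library, and the rings of a Sftpb junction (293 and 0) and the Sftpd junction (294 and 0) coincide.

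Allelic expression was measured as the C57BL/6J share of allelic junction reads at the event with the most such reads of each gene. The median over 8650 genes was 50.6%. By the rule of an adjusted p below 0.05 and a share at least 10 percentage points from 50%, 21.9% of the genes were called, and 2 of the 8 genes were called, so the 8 genes were near the background. By adjusted p alone, 41.2% of all genes passed and all 8 did. The p-values rest on 2 libraries only. Their spread was a trend with read depth over all genes, or the gene's own spread where that was larger.

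Both called genes were higher from the C57BL/6J allele. Sftpa1 had 43217 and 45954 reads of C57BL/6J and 16210 and 15971 of SPRET/EiJ, a share of 72.7% and 74.2%. Lamp3 had 3071 and 3138 reads of C57BL/6J against 1183 and 1152, a share of 72.2% and 73.1%. Sftpd followed with 59.1% and 60.6%, just under the limit.

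The other genes were closer to an equal share. Sftpc had 53.1% and 53.3%, Ager 53.9% and 53.7%, and Scgb1a1 52.4% and 52.5%. Cldn18, with 45.1% and 47.7%, and Sftpb, with 43.9% and 44.4%, had more reads from the SPRET/EiJ allele. Summed over all events, the share of Ager was 50.6% and no longer passed (adjusted p = 0.245), and the others kept their side of 50%.

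The share differed between the events of a gene. Only reads that cover a difference between the strains can be assigned, and whether this bears on the share was not tested. At Sftpa1 the share ran from 54.3% to 80.8% over 7 events. The 33 bp exon had 79.2% and 80.8%, where 82.7% of all reads were allelic, and the 78 bp exon (chr14:41133638-41133715) had 54.3% and 54.4%, where 9.54% were. All 7 events lay above 50%, but those with under 25% allelic reads lay below the limit for a call. A further event of the 33 bp exon, that of the longer skip, had 217 and 214 inclusion reads of C57BL/6J and 1 and 0 of SPRET/EiJ, too few for the read minimum. For Lamp3 the range was 59.9% to 73.1% over 5 events.

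At Sftpc the share ran from 50.8% to 64.6%, and at Sftpd from 53.0% to 60.6%. At Sftpb it ran from 16.3% to 44.5% over 14 events, all below 50%. The low end was at the event of the 161 bp exon described above, with 18.1% and 16.3%. The 115 bp form, against the skip to chr6:72312353, had 30.4% and 29.8%. At Ager the 8 events lay between 48.0% and 56.6%, on both sides of 50%.

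**Figure D5:**
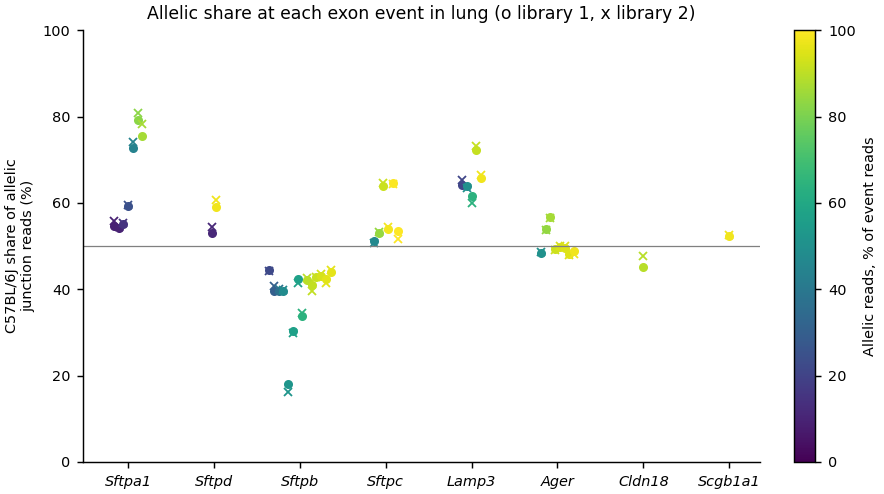
C57BL/6J share of allelic junction reads in lung (vertical axis, percent) at each event with a tested allelic difference, by gene (horizontal axis), in library 1 (circles) and library 2 (crosses). Color gives the percentage of the event's reads that could be assigned to an allele, and the events of Sftpa1 range from 54.3% to 80.8%, those of Sftpb from 16.3% to 44.5%.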

How the data were processed

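Per the labels and the study's methods, stranded RNA-seq reads were aligned by the authors with HISAT2 2.0.1 to mm10 and to a SPRET/EiJ genome in mm10 coordinates. Lung, spleen and ESC were sequenced with reads of 76 bp. Heart, kidney and cortex were sequenced with longer reads, which the authors trimmed to that length. They counted junction reads of SE events with rMATS and computed TPM from featureCounts. The deposited TPM were normalised to a total of 1000000 per library, so they do not hold the number of reads behind a value, although the study's methods give the reads sequenced per library. The deposited rMATS tables hold junction counts of both replicates in 1 cell, for all reads and by allele, and effective lengths used as a deposited score. The authors' columns of PSI differences, p-values and FDR were not used, nor was the retained intron table.

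TPM were tested with limma 3.58.1 (R 4.3.3) on log2(TPM + 0.1), for genes with at least 1 TPM in at least 2 tissue libraries, over the 14 tissue libraries. Junction counts were tested with a quasi-binomial model whose dispersion was moderated with limma's prior and was never below 1 or below the event's own. Events needed 20 reads in each library and allele and autosomal location. Adjusted p-values (Benjamini-Hochberg) cover every feature that entered a test. The form of the dispersion was changed after counts of calls, those of the 8 genes included, had been seen, and the earlier forms are kept as alternatives. In simulated data the test recovered 17% of allelic differences of 0.2 in PSI (33.5% with a library block), 43% of such differences between lung and spleen and 77% of allelic shares 15 points from 50%. The expression test recovered 86% of differences of 1.5 and 99% of those of 3 on the log2 scale.

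The 8 genes, the gene lists and the tests were chosen with earlier results of these data known. Named were all 8 genes, their best covered events, events with a mean PSI of 0.1 to 0.9 and called events, and, from the largest difference down, up to 4 called genes of each list for lung cells and surfactant metabolism. The alleles of a library are paired by design (r of their replicate deviations 0.124). The replicate numbers of different tissues were not tied to animals, and their deviations correlated between -0.037 and 0.173. The intervals given are exact 95% binomial intervals. Intervals and the limit for a count of 0 (3 counts) cover counting error only. Exon annotation beyond the SE coordinates was not used here. The result of 1 marker list is not reported here.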

Additional observations from a re-analysis of the deposited data

Results flagged for a closer look

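At 1 exon each of Sftpa1, Sftpd and Ager, the allele with more reads in lung was not the one with more reads in another tissue, in both libraries of each. These differences were not tested, and they rest on few reads outside the lung. At the 33 bp exon of Sftpa1 (chr14:41132216-41132248), where 79.2% and 80.8% of allelic reads in lung were of C57BL/6J, the liver libraries had 0 of 15 (0%, 95% interval up to 21.8%) and 1 of 13 (7.69%, 0.195% to 36.0%). In the spleen libraries the same exon had 84.8% and 84.0%, on the side of the lung.

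At the 84 bp exon of Sftpd (chr14:41174477-41174560), with 59.1% and 60.6% of C57BL/6J in lung, the ESC clones had 4 of 45 (8.89%, 2.48% to 21.2%) and 1 of 15 (6.67%, 0.169% to 31.9%). The exon had 37 inclusion and 8 skipping reads in ESC clone 1 and 15 and 1 in clone 2.

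At the 27 bp exon of Ager (chr17:34600351-34600377), with 49.3% and 49.1% in lung, the spleen libraries had 56.5% (49.6% to 63.2%) and 58.3% (48.7% to 67.4%), and the kidney libraries 61.3% (42.2% to 78.2%) and 51.9% (31.9% to 71.3%). All 4 intervals include 50%. The best covered exon of Ager had 53.9% and 53.7% of C57BL/6J in lung, on the same side as spleen and kidney here. The allelic difference in PSI at the 27 bp exon was -0.015 in lung and 0.048 in spleen, with opposite signs in both libraries.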

How the results depend on the processing

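All 8 genes kept the call of higher expression in lung under each setting tried: a pseudocount of 1 or 0.01, no filter, other scaling, the replicate number as a block, and leaving out liver, ESC, spleen or any 1 tissue library. Genes called lower numbered 2032 with a pseudocount of 1. The numbers of the tissue libraries share no more than a number, and their block gave 5668 higher and 3275 lower genes. Of the lists for alveolar type 1 and type 2, secretory and ciliated cells, only the type 2 count changed, to 15 of 16 without liver, and that of alveolar macrophages fell to 7 of 8 without ESC. Without 1 library, 5330 to 5758 genes were called higher and 3001 to 3343 lower.

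Of allelic inclusion events, 898 were called with the replicate block of the library and 919 by adjusted p alone, and by that rule 3 events of the 8 genes. With the block, adjusted p alone gave 1830 events and 6 of the 8 genes' events. An earlier form of the dispersion let the moderated value replace a larger one of the event's own. With it, 676 of 22047 events were called. Of the 44 events of the 8 genes, 2 were called, the 115 bp and 161 bp events of Sftpb. The difference at the 115 bp form was -0.052 without replicate 1 and -0.179 without replicate 2. No event of the 8 genes was called under the other settings. Without a depth trend in the prior, the 33 bp exon of Sftpa1 had an adjusted p of 0.0182. Between tissues and for the allelic share, the replicate block or other settings left every count within 1.5 times, and with inclusion reads alone the share of Sftpd was 60.8% and was called. At the lowest of its events Ager had 48.0%, on the other side of 50%. Adjusted p alone, the dispersion forms, the range over events and leaving out spleen were added after seeing the data. The cause of these changes was not tested. With 2 libraries a group, most differences in PSI of 0.2 were missed in the simulated data. Smaller ones passed by adjusted p at some deeply read lung events of the 8 genes. The depth outside lung limits all allelic and splicing values there.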
